A study of Mus musculus with 82 samples.

Results

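The comparison was of the superior colliculi of mice with both ocular hypertension (OHT) and chemogenetic stimulation of the colliculus, “OHT + DREADD”, with those of mice with neither, “SHAM”. Its members were the 20 libraries of these groups, 10 “OHT + DREADD” and 10 “SHAM”, of 41 collicular libraries and 82 samples in the series. A gene was tested where 2 or more of the 20 libraries held over 5 of its reads, which left 15518 of 43629 gene identifiers. The study asked what stimulating a target of the optic nerve changes in a model of glaucoma, in the retinal ganglion cells and in the target itself. “OHT + DREADD” mice carried an AAV vector for hM3D(Gq)-mCherry under the CaMKIIα promoter in the left colliculus, and the right eye was injected with magnetic microbeads. “SHAM” mice had a null vector that carried mCherry alone, and the right eye received salt solution. Both groups, like the remaining ones of the series, were given clozapine-N-oxide (CNO), so the exposure to this drug was shared, and all were killed 5 weeks after the eye injection, at 10 weeks of age by the labels. The labels give the genotype as wild type, whereas the methods of the study name Vglut2-ires-Cre × Thy1-STOP-YFP mice. A sample was the lysate of 1 superior colliculus, labelled as neurons and glia, whereas the CaMKIIα promoter is known for its activity in excitatory neurons. The vector reaches only cells near the injection, so transduced cells and their neighbours were measured together.

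The superior colliculus is a midbrain center whose upper layers receive input from retinal ganglion cells. hM3D(Gq) is a designer receptor that is activated by CNO or its metabolite clozapine and couples to Gq, phospholipase C and intracellular calcium, which depolarizes neurons. Calcium and MAP kinase signaling then phosphorylate CREB and related factors, and within minutes the immediate-early genes (IEGs) are transcribed, among them the AP-1 subunits *Fos* and *Fosb*, the zinc finger gene *Egr1* and the orphan nuclear receptors *Nr4a1* and *Nr4a3*. The comparison of “OHT + DREADD” with “SHAM” joins the effect of the eye injury and that of stimulation, and the 4-group data further down were used to set each beside the combined change.

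The promoters of 4 of the IEGs and feedback genes that rose are printed to show the cAMP response element (CRE), the motif that CREB binds. Of the 12 genes that rose, 9 were examined in the RefSeq promoter table of build GRCm38.p6, which covers 250 bases before to 50 bases after each start. *Egr1* was not among them, because its chromosome was left out of the search, though not out of the share of all promoters below. The core motif TGACG, or CGTCA where it lies on the other strand, was found in 6 of the 9, namely *Fos*, *Fosb*, *Nr4a3*, *Dusp1*, *Nr4a1* and *Per1*, and not in this window of *Serpina3n*, *Tiparp* or *Mfsd2a*. It was found in 20.8% of all 32851 promoters of that length, and the full palindrome TGACGTCA, which holds both core motifs and so overlaps them, in 1.79%. The 150 bases before the start are given 5′ to 3′ on the strand of the gene, at chr12:85473740-85473889 on the plus strand for *Fos*, chr7:19310046-19310195 on the minus strand for *Fosb*, chr17:26508473-26508622 on the minus strand for *Dusp1* and chr15:101266696-101266845 on the plus strand for *Nr4a1*. Capitals mark the core motif, or the full palindrome in *Dusp1*.
Fos: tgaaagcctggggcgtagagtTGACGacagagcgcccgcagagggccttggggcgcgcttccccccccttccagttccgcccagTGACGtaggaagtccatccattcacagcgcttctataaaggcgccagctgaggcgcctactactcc
Fosb: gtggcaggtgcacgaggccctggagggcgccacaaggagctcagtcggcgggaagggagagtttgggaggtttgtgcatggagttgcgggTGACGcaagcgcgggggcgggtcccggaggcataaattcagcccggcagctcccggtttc
Dusp1: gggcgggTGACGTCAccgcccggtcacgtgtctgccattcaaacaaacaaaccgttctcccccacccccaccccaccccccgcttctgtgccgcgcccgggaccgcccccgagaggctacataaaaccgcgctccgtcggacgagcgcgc
Nr4a1: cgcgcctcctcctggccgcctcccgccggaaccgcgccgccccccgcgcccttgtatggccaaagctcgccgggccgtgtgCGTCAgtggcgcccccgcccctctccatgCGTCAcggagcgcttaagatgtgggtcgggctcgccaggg
The *Fos* motifs began 129 and 66 bases before the start, that of *Fosb* 60 bases, and those of *Nr4a1* 69 and 40 bases before it. A match is a description of letters in the promoter. CREB binding was not measured.

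The noncoding gene *1700016P03Rik* is of another kind, since its locus on chromosome 11 holds 2 microRNAs of neuronal activity, and their mature sequences are printed because the transcript that contains them rose. RefSeq places mmu-miR-212-3p at chr11:75173443-75173464 and mmu-miR-132-3p at chr11:75173723-75173744, both on the plus strand of GRCm38.p6. Capitals mark the seed, bases 2 to 8 from the 5′ end, which pairs with target messages.
mmu-miR-132-3p: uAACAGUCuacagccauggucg
mmu-miR-212-3p: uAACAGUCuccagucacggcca
Both share the seed AACAGUC. The libraries were made from polyadenylated RNA by QuantSeq, a protocol that sequences the 3′ end of each message, so mature microRNAs were not measured and only their host transcript is reported.

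Reads in genes numbered 2088172 to 3075802 per “SHAM” library (median 2724518.5) and 1766207 to 3407553 per “OHT + DREADD” library (median 3070858.5). In these 20 libraries, 16691 to 18390 genes were detected and mitochondrial genes held 17.91% to 25.44% of the reads. The RNA of *Xist* against 4 Y-linked genes gave 2 females and 8 males in “SHAM” and 5 females and 5 males in “OHT + DREADD”, a split that the labels do not give. “SHAM” replicate 1 has a treatment label that conflicts with its title and was kept by its title. Without it, 10 genes rose and 0 fell, and 8 of the 12 genes called with it were among them. The collicular layer markers were present in every library, and all 13 cell type marker lists had 0 members called and 0 members without reads in both groups. With 0.0773% of all genes tested called, 0 called is near the share of any such list. Levels are given in CPM, read counts scaled to a common library total with the TMM factors of edgeR over all 41 libraries.

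The combined condition raised 12 genes and lowered none by the quasi-likelihood test of edgeR. A gene was called if its adjusted p did not exceed 0.1 and its log2 fold change reached 0.5 in either direction. The 12 were 0.0773% of the genes tested, and the 0 lower ones 0%. At an unadjusted p under 0.05, 728 genes (4.69%) were higher and 386 (2.49%) were lower. DESeq2 called 25 higher and 0 lower genes, and limma-voom called 16 and 1. By role, the 12 were 5 transcription factors of the Fos, Egr and Nr4a families, the clock gene *Per1*, the phosphatase gene *Dusp1*, the mono-ADP-ribosyltransferase gene *Tiparp*, the microRNA host *1700016P03Rik*, the protease inhibitor gene *Serpina3n*, the lipid transporter gene *Mfsd2a* and the pseudogene *Gm12630*. No gene tested had groups that were fully apart, also 0%. Over all genes tested, 8181 of 15518 were higher in sign and the median log2 difference was 0.013, the background against which the counts of signs and the medians of lists stand. TMM scaling by its construction places that median near 0. In such lysates, fewer cells of a type and less RNA per cell cannot be told apart.

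Of the AP-1 subunits, *Fos*, whose product pairs with Jun proteins, was at 9.67, 14.9 and 31.6 CPM (lowest, median and highest) in “SHAM” and at 26.8, 58.8 and 99.8 CPM in “OHT + DREADD”. The ranges met only at their ends, since 8 of 10 “OHT + DREADD” colliculi were above the highest “SHAM” colliculus, replicate 10, and 9 of 10 “SHAM” colliculi were below the lowest “OHT + DREADD” one. The mean rose from 16.6 ± 6.28 to 59.7 ± 26.04 CPM (SD, n = 10 each), a log2 fold change of 1.86 ± 0.22 (SE, edgeR adjusted p = 1.6e-05). *Fosb*, which gives rise to the long-lived ΔFosB isoform, was at 0.359, 1.14 and 3.95 CPM in “SHAM” and 2.85, 9.54 and 10.1 CPM in “OHT + DREADD”. Here too 8 stimulated colliculi exceeded the whole “SHAM” range, and a single “SHAM” colliculus reached into theirs. It rose by 2.35 ± 0.30 on the log2 scale (edgeR adjusted p = 6.1e-05), from 41 reads in all “SHAM” libraries to 236 in all “OHT + DREADD” libraries. Among the 9 measured AP-1 subunits, 7 were higher in sign, 2 passed the test and the median log2 difference was 0.23. The other members were not called: *Junb* had medians of 24.7 and 38.1 CPM with a difference of 0.55 ± 0.15 (edgeR adjusted p = 0.26), *Fosl2* of 18.6 and 32.3 CPM with 0.60 ± 0.16 (edgeR adjusted p = 0.26), and *Jun* differed by 0.23 ± 0.16 (edgeR adjusted p = 0.79).

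Of the orphan receptors, *Nr4a3*, a transcription factor that needs no ligand, was at 0.345, 2.41 and 3.23 CPM in “SHAM” and at 1.84, 10.7 and 15.2 CPM in “OHT + DREADD”. The groups overlapped through 3 stimulated colliculi, replicates 2, 9 and 10, at 3.2, 2.3 and 1.8 CPM, whereas the other 7 were above every “SHAM” value. The log2 fold change was 1.99 ± 0.35 (edgeR adjusted p = 0.0069). *Nr4a1* was at 3.11, 7.30 and 15.9 CPM in “SHAM” and 7.84, 15.8 and 23.0 CPM in “OHT + DREADD”. The overlap was wider, with 5 stimulated colliculi above the “SHAM” range, and the log2 fold change was 1.09 ± 0.21 (edgeR adjusted p = 0.031). All 3 receptors of the family were higher in sign and 2 were called, with a median of 1.09.

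Of the Egr and Nab genes, *Egr1*, an activity-dependent transcription factor also known as Zif268, was at 32.5, 56.7 and 77.9 CPM in “SHAM” and 32.7, 112 and 151 CPM in “OHT + DREADD”. Of the stimulated colliculi, 7 were above the “SHAM” range, and replicate 9 was at its lower end. The log2 fold change was 0.88 ± 0.19 (edgeR adjusted p = 0.065). *Egr4* differed by 0.99 ± 0.33 (edgeR adjusted p = 0.54) and *Egr2* by -0.33 ± 0.47 (edgeR adjusted p = 0.91), neither called. Of the 5 genes of this list, 4 were higher in sign, 1 was called and the median was 0.25.

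Across the 20 other early transcription regulators, 18 were higher in sign, 11 of them at an unadjusted p under 0.05, with a median of 0.42, but only *Per1* was called. Without “OHT + DREADD” replicates 1, 2, 9 and 10, which stood high in other genes described below, 15 of the 20 were higher in sign, the median was 0.10 and 0 were called. *Npas4*, a factor induced selectively by neuronal activity, differed by 1.34 ± 0.45 (edgeR adjusted p = 0.54), *Maff* by 0.82 ± 0.23 (edgeR adjusted p = 0.31) and *Gadd45g* by 0.56. *Gadd45g*, a gene of DNA repair and demethylation, was at 56.1, 78.3, 65.0 and 82.9 CPM in these 4 colliculi, at 26.9 to 40.2 CPM in the other 6 and at 24.99 to 39.3 CPM in “SHAM”. The brain-derived neurotrophic factor gene *Bdnf*, read out after its values were seen, was at 35.4, 50.7 and 62.5 CPM in “SHAM” and 19.6, 61.9 and 82.0 CPM in “OHT + DREADD”, with a difference of 0.13 ± 0.17 (edgeR adjusted p = 0.89). The stimulated colliculi thus reached both above and below the “SHAM” range. *Arc*, a gene of dendritic plasticity, differed by 0.39 ± 0.25 (edgeR adjusted p = 0.78). Of 21 activity-regulated synaptic effectors, 17 were higher in sign and 1 was called, the microRNA host. *Gpr3*, an orphan receptor that raises cAMP, differed by 1.45 ± 0.37 (edgeR adjusted p = 0.20), *Inhba* by 0.42 and *Scg2* by 0.18.

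**Figure D1:**
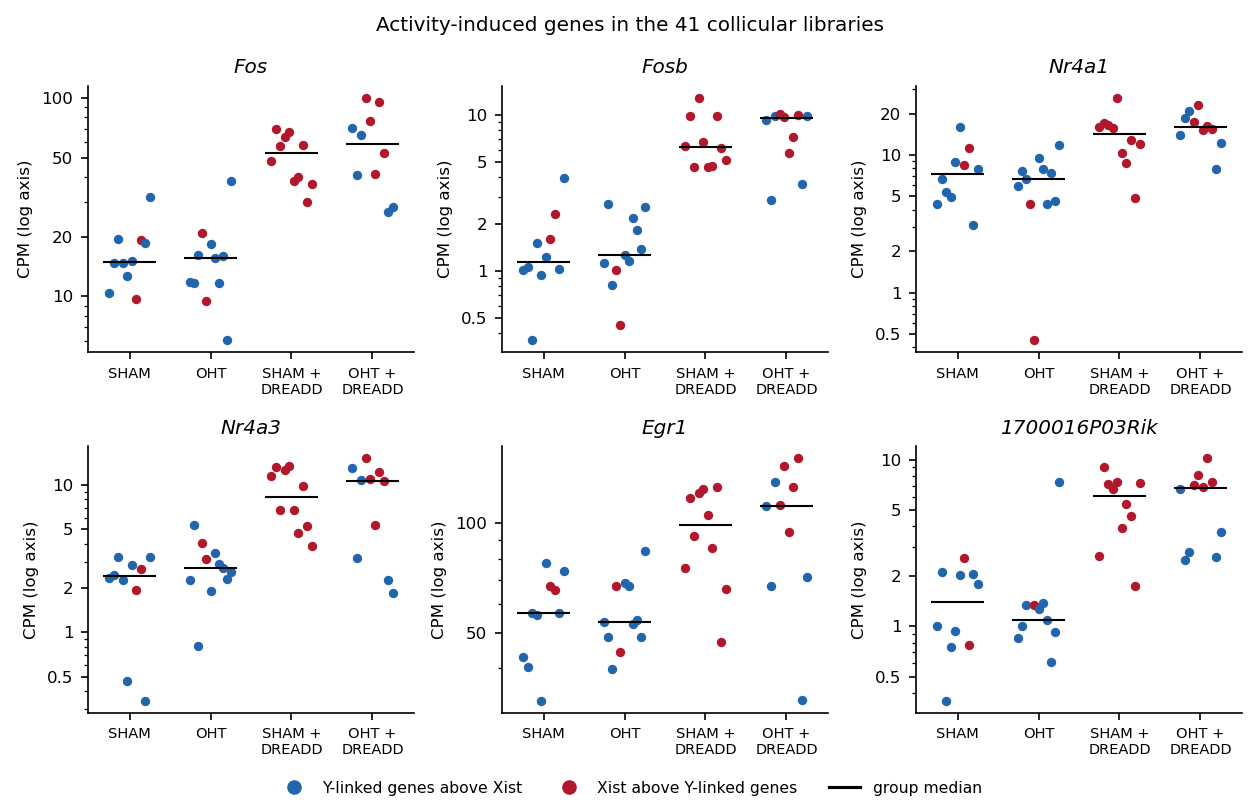
Levels in CPM on a log axis of 6 activity-regulated genes in each collicular library of the 4 groups, with blue points for libraries in which Y-linked RNA exceeded *Xist*, red points for the reverse and bars for group medians (1 “OHT” library with 0 CPM of *1700016P03Rik* is not drawn). *Fos*, *Fosb* and *1700016P03Rik* lay above nearly the whole “SHAM” range in “OHT + DREADD”, whereas *Egr1* and *Nr4a3* overlapped it through 3 colliculi each.

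*1700016P03Rik*, the host of both microRNAs printed above, was at 0.359, 1.40 and 2.58 CPM in “SHAM” and 2.49, 6.79 and 10.2 CPM in “OHT + DREADD”. Of the 12 genes it came closest to separating the groups, since 9 of 10 stimulated colliculi were above the “SHAM” range and 9 of 10 “SHAM” colliculi were below theirs. It rose by 1.98 ± 0.32 on the log2 scale (edgeR adjusted p = 0.0029), on 40 reads in all “SHAM” and 179 reads in all “OHT + DREADD” libraries.

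*Dusp1* encodes a phosphatase that inactivates MAP kinases and is itself induced by them. It was at 10.6, 15.3 and 29.5 CPM in “SHAM” and 21.1, 30.7 and 39.6 CPM in “OHT + DREADD”, with 6 stimulated colliculi above the “SHAM” range and 7 “SHAM” colliculi below theirs. Its log2 fold change was 0.81 ± 0.16 (edgeR adjusted p = 0.031). Of 16 genes of MAP kinase feedback, 12 were higher in sign and *Dusp1* alone was called, with a median of 0.19, which was 0.12 with 0 called without replicates 1, 2, 9 and 10. The others included *Errfi1*, an inhibitor of the EGF receptor, at 0.75 ± 0.20 (edgeR adjusted p = 0.26), *Dusp6* at 0.41 ± 0.12 (edgeR adjusted p = 0.32) and *Spry1* at 0.85 ± 0.31 (edgeR adjusted p = 0.60). *Tiparp*, known as a target of the aryl hydrocarbon receptor, was at 24.3, 33.4 and 46.5 CPM in “SHAM” and 40.1, 49.9 and 86.9 CPM in “OHT + DREADD”. Here 6 stimulated colliculi were above the “SHAM” range, and replicates 2, 9 and 10 were the highest, at 86.9, 82.0 and 70.6 CPM. The log2 fold change was 0.73 ± 0.14 (edgeR adjusted p = 0.022).

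*Serpina3n*, a secreted inhibitor of serine proteases and a marker of reactive astrocytes, was at 10.3, 11.5 and 31.0 CPM in “SHAM” and 20.5, 32.4 and 68.0 CPM in “OHT + DREADD”. Without its highest colliculus, replicate 6, the “SHAM” group lay below all stimulated colliculi. Its log2 fold change was 1.46 ± 0.22 (edgeR adjusted p = 0.00093). Of 29 genes of reactive glia and inflammation, 26 were higher in sign and *Serpina3n* alone was called, with a median of 0.18. *Gfap*, the intermediate filament gene of reactive astrocytes, differed by 0.36 ± 0.15 (edgeR adjusted p = 0.66), and *Ifit3*, an interferon-induced gene, by 0.47. Beside this, the summed astrocyte markers were at 3012, 3475 and 4041 CPM in “SHAM” and 3108, 3688 and 4055 CPM in “OHT + DREADD”, the microglia markers at 590, 848 and 1094 CPM and at 712, 858 and 1715 CPM, and their part in these differences was not tested. The highest microglia value was that of “OHT + DREADD” replicate 10.

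*Mfsd2a*, a lysophospholipid transporter of the brain endothelium, was at 14.4, 17.6 and 28.7 CPM in “SHAM” and 12.6, 31.0 and 59.3 CPM in “OHT + DREADD”, so that 7 stimulated colliculi were above the “SHAM” range and 1 was below it. The log2 fold change was 0.89 ± 0.19 (edgeR adjusted p = 0.088). The processed pseudogene *Gm12630* rested on 1 read in all “SHAM” libraries and 39 reads in all “OHT + DREADD” libraries (edgeR adjusted p = 0.088), and pseudogenes can share reads with other copies, so its source is uncertain. Its 4 highest libraries were “OHT + DREADD” replicates 1, 2, 9 and 10, at 3.21, 3.92, 2.94 and 1.23 CPM. Leaving out 1 library at a time, *Mfsd2a* was called in 5 of 20 fits, *Gm12630* in 7, *Egr1* in 8 and *Per1* in 12, whereas the other 8 genes were called in all 20. *Per1* missed the threshold without “SHAM” replicate 1, 2, 4, 5, 7 or 8 or “OHT + DREADD” replicate 2 or 9, with an edgeR adjusted p from 0.02 to 0.16 over the 20 fits. *Egr1* missed it without “SHAM” replicate 1, 2, 3, 4, 5, 8 or 9 or “OHT + DREADD” replicate 1, 3, 5, 7 or 8, with an edgeR adjusted p from 0.00075 to 0.19. Both kept their direction in all 20 fits.

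Since no gene fell, the 5 lower genes of lowest p are given as values that missed the threshold. *Hes5*, an effector of Notch signaling, was at 16.5, 29.6 and 40.1 CPM in “SHAM” and 5.53, 16.8 and 25.5 CPM in “OHT + DREADD”, with a log2 difference of -0.93 ± 0.22 (edgeR adjusted p = 0.18). The 4 lowest values were those of “OHT + DREADD” replicates 1, 2, 9 and 10, whereas the other 6 lay within or just below the “SHAM” range. *Rab3c*, a small GTPase of synaptic vesicles, was at 409, 511 and 535 CPM against 340, 399 and 438 CPM, a difference of -0.29 ± 0.07 (edgeR adjusted p = 0.20). *Akap5*, an anchoring protein for kinases at the synapse, differed by -0.58 ± 0.16 and *Nwd2* by -0.60 ± 0.16 (edgeR adjusted p = 0.26 for each). *Gm29650*, a noncoding gene of the Y chromosome, differed by -2.27 ± 0.62 (edgeR adjusted p = 0.26), beside 8 males in “SHAM” and 5 in “OHT + DREADD”. Within the males it was at 1.44, 3.59 and 4.89 CPM in “SHAM” and 0, 0.71 and 2.48 CPM in “OHT + DREADD”. The part of the number of males in the difference was not tested.

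The glucocorticoid-responsive genes were the list with the second highest median after the Nr4a receptors. These are genes known to be induced when the stress hormone corticosterone binds its receptor. All 19 were higher in sign, 18 at an unadjusted p under 0.05, with a median log2 difference of 0.82, but only *Dusp1* and *Per1* were called, and both are IEGs as well. *Per1*, a repressor of the circadian clock, was at 10.4, 14.4 and 21.1 CPM in “SHAM” and 16.8, 23.2 and 64.1 CPM in “OHT + DREADD”, with a log2 fold change of 1.05 ± 0.22 (edgeR adjusted p = 0.058). The highest 3 values, 64.1, 54.9 and 51.6 CPM, were those of replicates 2, 9 and 10. Of the 19 clock genes 14 were higher in sign and 1 was called. *Ciart*, another repressor of the clock, differed by 0.92 ± 0.28 (edgeR adjusted p = 0.40) and *Cry1* by 0.60 ± 0.23 (edgeR adjusted p = 0.64).

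Most of the uncalled glucocorticoid-responsive genes named here were high in 4 of the 10 “OHT + DREADD” colliculi, replicates 1, 2, 9 and 10. *Sgk1*, a kinase gene that is a textbook target of the receptor and was read out after its values were seen, was at 255, 205, 235 and 157 CPM in these, at 46.5 to 75.4 CPM in the other 6 and at 37.4 to 84.2 CPM in “SHAM”. The 4 were thus above and the 6 within the “SHAM” range, and the difference of the whole group was 1.05 ± 0.28 (edgeR adjusted p = 0.26). *Ddit4*, an inhibitor of mTOR complex 1, was at 142, 117, 109 and 125 CPM in the same 4 and at 32.0 to 41.8 CPM in the others, against 26.6 to 52.9 CPM in “SHAM”, with a difference of 0.98 ± 0.25 (edgeR adjusted p = 0.20). The metallothionein gene *Mt2* and the leucine zipper gene *Tsc22d3*, also known as GILZ, had the same order, the latter at 215, 151, 200 and 161 CPM against 63.1 to 93.3 CPM. *Fkbp5*, a co-chaperone of the receptor, was at 59.6, 44.2, 27.8 and 41.1 CPM against 6.5 to 19.6 CPM, with a difference of 0.75 ± 0.26 (edgeR adjusted p = 0.55). *Plin4*, a lipid droplet gene, departed from this order, since it was high in replicate 1 alone, at 38.2 CPM. The mean over the 19 genes, as log2 against the “SHAM” mean, was 1.599, 1.54, 1.30 and 1.34 in replicates 1, 2, 9 and 10, ran from -0.15 to 0.43 in the other 6, and from -0.34 to 0.22 in “SHAM”. High values also occurred outside the comparison and in both sexes, at 1.20 and 0.60 in “OHT” replicates 2 and 11, both male, and at 0.91 and 1.31 in “SHAM + DREADD” replicates 9 and 10, both female.

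These 4 colliculi were from males, and replicate 9 also had the highest summed oligodendrocyte markers (14374 CPM, against at most 8046 CPM in “SHAM”) and replicate 10 the highest mural and meningeal markers (1783 CPM, against at most 1283 CPM in “SHAM”). By library number, replicates 9 and 10 directly preceded “SHAM + DREADD” replicates 9 and 10, whose glucocorticoid means were 0.91 and 1.31. Replicates 1 and 2 lay close to “OHT” replicate 2, at 1.20, but also to “OHT” replicates 3 and 4, at 0.45 and 0.08. No “SHAM” library fell among these, so library number and group cannot be told apart there. A covariate for library number left the median of the 19 genes at 0.82 but cannot separate them. The part of sex, library number and these other tissue components in the values of replicates 1, 2, 9 and 10 was not tested. The early genes did not share 1 order. *Gadd45g*, as given above, *Maff* (14.2 to 22.7 CPM in the 4 and 7.46 to 12.8 CPM in the 6) and *Errfi1* (26.6 to 47.4 CPM and 13.6 to 16.9 CPM) were highest in the 4, and *Per1* and *Tiparp* were highest in 3 of them, replicates 2, 9 and 10. *Fos*, *Egr1* and *Nr4a3* were not. The mean over 17 IEGs was 0.37, 0.38, 0.04 and 0.80 in replicates 1, 2, 9 and 10 and 0.63 to 0.86 in the other 6, and *Fos* was at 26.8 to 70.7 CPM in the 4 and at 41.2 to 99.8 CPM in the 6. Without the 4, a choice made after their values were seen, 10 genes rose and 1 fell, and 7 of the 12 genes above were among them. *Fos* (2.12), *Fosb* (2.52), *Nr4a3* (2.30), *1700016P03Rik* (2.24), *Nr4a1* (1.25), *Egr1* (1.15) and *Serpina3n* (1.36) were still called, with the log2 fold changes in parentheses. *Tiparp*, *Dusp1*, *Per1*, *Mfsd2a* and *Gm12630* were not. The median of the 19 glucocorticoid-responsive genes was then -0.02 with 9 higher and 10 lower in sign. The 4 were singled out by high values of these same genes, so this fall follows from that choice and is not a separate result. The median of the reactive glia genes was then -0.02. The reactive glia median did not fall in the females alone, which hold none of the 4 and only 2 “SHAM” libraries. There it was 0.36, with 28 of 29 genes higher in sign. With sex as a covariate it was 0.28, with all 29 higher. In the females alone the microglia markers also had a median of 0.36, with 10 of 11 higher, whereas that of the astrocyte markers was -0.15. The microglia sums were 590 and 761 CPM in the “SHAM” females and 811 to 957 CPM in the stimulated ones. The part of microglia content in the reactive glia median was not tested.

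**Figure D2:**
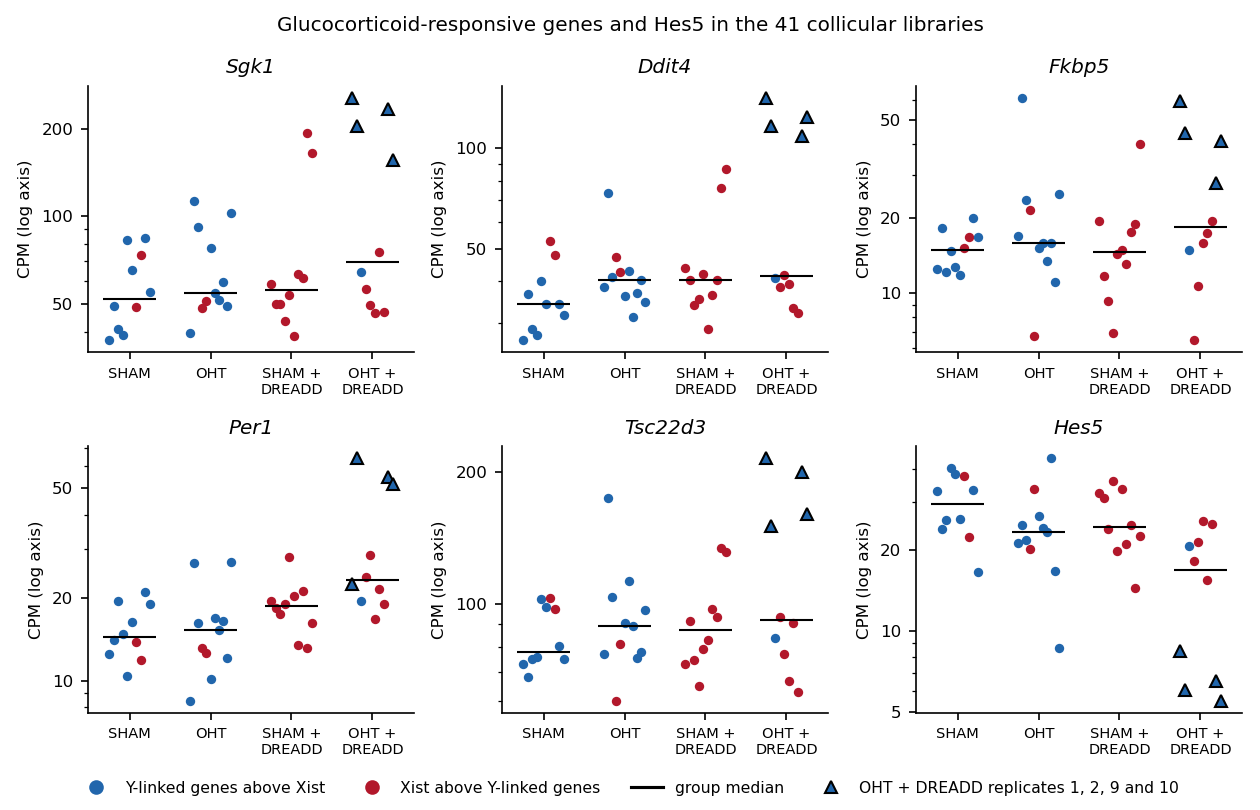
Levels in CPM on a log axis of 5 glucocorticoid-responsive genes and of *Hes5* in each library of the 4 groups, with triangles for “OHT + DREADD” replicates 1, 2, 9 and 10, blue points where Y-linked RNA exceeded *Xist*, red points for the reverse and bars for group medians. The triangles lay above the “SHAM” range for *Sgk1*, *Ddit4* and *Tsc22d3* and below it for *Hes5*, and the other 6 colliculi lay within the “SHAM” range of *Sgk1* and *Ddit4*.

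Of the genes called only without these 4, *Itih3* and *Agt* were higher and *Fabp7* was lower, and all 3 are known to be expressed in astrocytes. *Itih3*, a hyaluronan-binding protein gene, rose by 0.61 (edgeR adjusted p = 0.0001), and *Agt*, the angiotensinogen gene, by 0.65 (edgeR adjusted p = 0.0062). *Egr4* was also called, at 1.40 (edgeR adjusted p = 0.059). *Fabp7*, a fatty acid binding protein of radial glia and astrocytes, fell by 0.84 on the log2 scale (edgeR adjusted p = 0.0026). With all 20 libraries the log2 differences were 0.43 ± 0.11 for *Itih3*, 0.52 ± 0.14 for *Agt* and -0.51 ± 0.20 for *Fabp7*, none called. For *Itih3* the 6 colliculi were at 79.2 to 105 CPM, all above the highest “SHAM” value of 69.6 CPM, and the 4 at 74.5, 69.1, 67.6 and 52.8 CPM. *Itih3* was picked by its call in these same 6, so this gap is not a separate result.

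The sexes were then compared within the 20 libraries, because the groups differed in their number of males and the 4 colliculi were all male. The test of the change in males minus that in females was chosen after the data were seen, and rests on only 2 “SHAM” females. It called 14 genes higher in males (0.0902%) and 0 lower (0%), with 6 of the 19 glucocorticoid-responsive genes among the 14 (*Ddit4*, *Mt2*, *Klf9*, *Tsc22d3*, *Mt1* and *Sgk1*). *Ddit4* changed by 1.72 ± 0.17 on the log2 scale in males and by -0.45 ± 0.26 in females, a difference of 2.17 ± 0.31 (edgeR adjusted p = 0.00092). In males its levels were 26.6 to 40.04 CPM in “SHAM” and 40.9 to 142 CPM in “OHT + DREADD”, and in females 48.1 to 52.9 CPM and 32.0 to 41.8 CPM. The male groups did not overlap and the female groups did not either, in the opposite order. With 2 “SHAM” females a gap says little, and the share of all genes without overlap within a sex was not counted. *Sgk1* changed by 1.71 in males and -0.15 in females, a difference of 1.85 ± 0.40 (edgeR adjusted p = 0.075). The median over the 19 genes was 1.25 in males and -0.15 in females, against 0.01 and 0.01 over all genes tested. The 4 colliculi were singled out for high values of these same genes and were most of the stimulated males. The count of 6 and these medians therefore follow from that choice and are not a separate result on sex.

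None of the IEG lists had a member called in this test, beside 0.0902% called over all genes tested. *Fos* changed by 1.46 ± 0.25 in males and 2.36 ± 0.41 in females, a difference of -0.90 ± 0.48 (edgeR adjusted p = 0.70). *Fosb* changed by 2.30 and 2.12, *Egr1* by 0.61 and 0.92 and *Nr4a1* by 1.08 and 0.84, in males and in females. *Tiparp* changed by 1.05 and 0.18, a difference of 0.87 (edgeR adjusted p = 0.41). Without “SHAM” replicate 7 or without replicate 8, the only females of that group, 1 gene was called higher in males, *Ddit4*. Without “OHT + DREADD” replicate 3, a male outside the 4, 62 genes were called higher and 25 lower. With sex as a covariate in the comparison of the groups, 77 genes rose and 12 fell, with 15 of the 19 glucocorticoid-responsive genes called. In the libraries from females alone, 4 genes rose, *Fos* (2.36), *Serpina3n* (1.92), *Egr1* (0.91) and *Nr4a3* (2.24), and *Fabp7* fell by 0.97. Of the 4 that rose, only *Fos* was still called where females of the other groups joined the fit, as given below. In those from males alone 188 rose and 84 fell, with 17 of the 19 called. Sex and the 4 colliculi cannot be told apart with these libraries, since only replicate 3 was a stimulated male outside the 4.

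**Figure D3:**
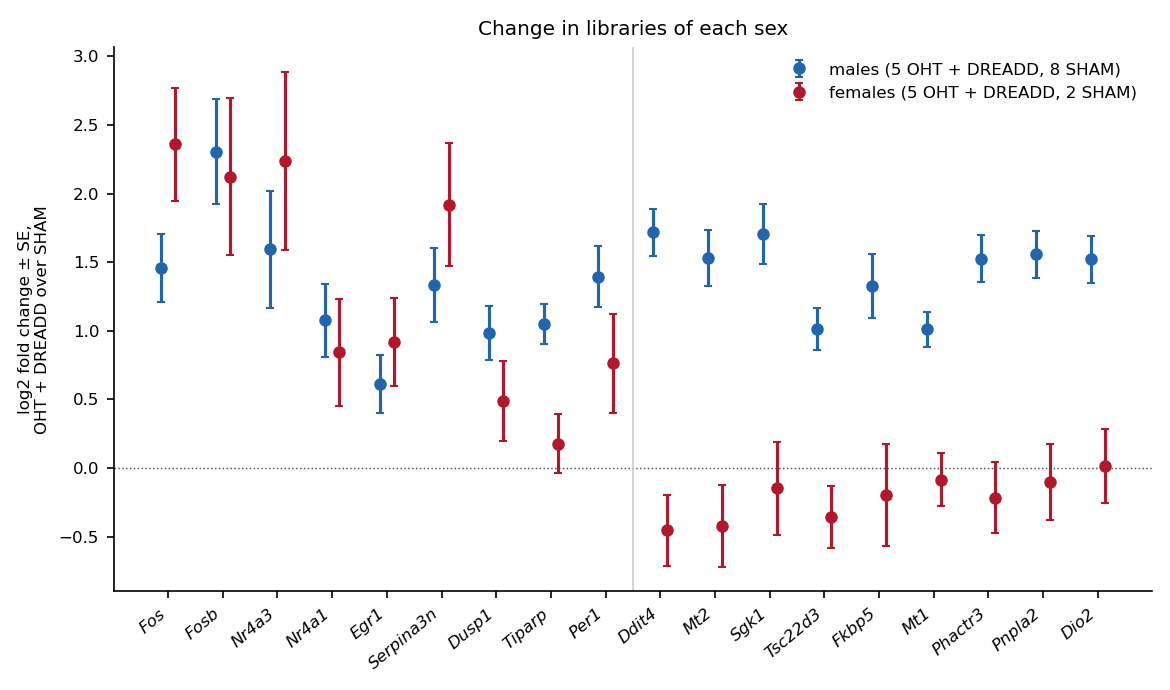
Log2 fold change with SE of “OHT + DREADD” against “SHAM” in males (blue, 5 and 8 libraries) and in females (red, 5 and 2 libraries), for called genes to the left of the vertical line and for glucocorticoid-responsive genes and others that differed between the sexes to the right of it. *Ddit4* was at 1.72 in males and -0.45 in females, whereas *Fosb* was at 2.30 and 2.12.

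The Gq pathway genes were examined because hM3D(Gq) acts through them. Of 24 receptors, G proteins, phospholipases and kinases, 12 were higher and 12 lower in sign, 0 were called and the median was -0.01. Over all genes tested 0.0773% were called, so 0 called in this list and those below is near that share and is no result about them. The muscarinic receptor gene *Chrm3*, whose human protein was engineered into hM3D(Gq), differed by 0.16 ± 0.13 (edgeR adjusted p = 0.81). The transgene itself was not measured. Of 23 growth factor ligands, 15 were lower in sign and 0 were called, with *Vegfa*, an angiogenic factor, at -0.24 ± 0.10 (edgeR adjusted p = 0.64) and *Igf2* at -0.44 ± 0.21 (edgeR adjusted p = 0.70). Of 30 growth factor receptors 0 were called, and *Il6st*, the shared receptor subunit of the interleukin-6 family, was at -0.19 ± 0.08 (edgeR adjusted p = 0.65). Heat shock and endoplasmic reticulum stress genes were higher in sign in 18 of 22 cases, with 0 called. Of these, the chaperone gene *Hspa5* differed by 0.31 ± 0.09 (edgeR adjusted p = 0.41) and the cochaperone gene *Dnajb1* by 0.28 ± 0.09 (edgeR adjusted p = 0.46). Of 16 genes of axon injury and growth and 20 of apoptosis, 0 were called, with medians of 0.12 and 0.05.

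**Figure D4:**
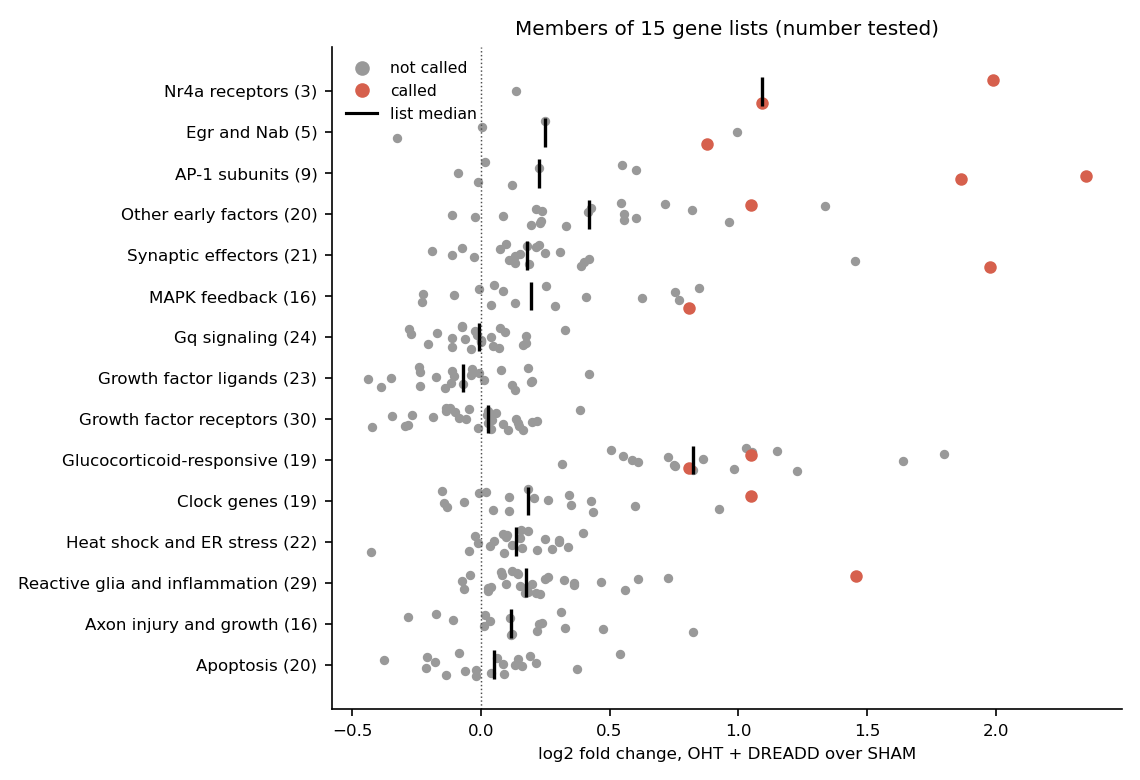
Log2 fold change of “OHT + DREADD” against “SHAM” (x axis) for each tested member of 15 gene lists, with red points for called genes, grey points for the rest and a black bar for the median of each list. The Nr4a receptors (median 1.09) and the glucocorticoid-responsive genes (0.82) stood highest, and the Gq list was centred on -0.01.

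The neuron markers gave no called gene, beside 0.0773% called over all genes tested. Summed excitatory markers were at 742, 792 and 965 CPM in “SHAM” and 683, 767 and 942 CPM in “OHT + DREADD”, inhibitory markers at 1155, 1268 and 1397 CPM and at 901, 1227 and 1493 CPM, and collicular layer markers at 793, 838 and 897 CPM and at 619, 811 and 979 CPM. The ranges overlapped for each. The list named for thalamic and cortical neurons was at 215, 234 and 301 CPM and at 206, 232 and 282 CPM. It shares *Calb2* with the collicular layer markers and *Tbr1* and *Slc17a7* with the excitatory ones, so it does not measure tissue from outside the colliculus.

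To set the combined change beside its components, 1 model was fitted to all 41 libraries, which added 11 “OHT” and 10 “SHAM + DREADD” colliculi. In it the combined condition raised 18 of 16169 genes tested (0.111%) and lowered 3 (0.0186%). The component comparisons share the “SHAM” libraries with the combined one, so their values are given side by side. *Fos* differed by 1.85 with both, by -0.04 with OHT alone and by 1.62 with stimulation alone. *Fosb* differed by 2.35, -0.01 and 2.22, *Nr4a3* by 1.98, 0.37 and 2.00, *1700016P03Rik* by 1.97, 0.11 and 1.91, *Egr1* by 0.87, 0.01 and 0.76, and *Nr4a1* by 1.09, -0.20 and 0.89, in the same order. OHT alone gave 2 genes higher (0.0124%) and 1 lower (0.00618%) over all genes tested, and none of the 12 was among them, at an edgeR adjusted p of 0.998 for each. Stimulation alone gave 4 higher (0.0247%) and 6 lower (0.0371%), and the 4 were *Fos* (edgeR adjusted p = 3.6e-05), *Fosb* (1.3e-05), *Nr4a3* (0.00042) and *1700016P03Rik* (0.012). All 10 “SHAM + DREADD” colliculi were female and 8 of 10 “SHAM” colliculi were male, so in this fit stimulation alone and sex cannot be told apart. With sex as a covariate, added after the values were seen, stimulation alone gave 3 higher (0.0186%) and 1 lower (0.00618%), with *Fos* at 1.40 (edgeR adjusted p = 0.05) and *Fosb* at 2.12 (edgeR adjusted p = 0.0033) called. *Nr4a3* at 1.59 (edgeR adjusted p = 0.20) and *1700016P03Rik* at 1.51 (edgeR adjusted p = 0.43) were then not called. The combined condition then called all 12 genes, among them *Mfsd2a*, which the fit of 41 libraries without the covariate did not call. In the female libraries alone, with 2 of “SHAM”, stimulation gave 0 higher (0%) and 1 lower (0.00646%), and *Fos* was at 1.84 (edgeR adjusted p = 0.12), *Nr4a3* at 1.95 and *Fosb* at 1.87. With both conditions, this female fit called *Fos* at 2.36 (edgeR adjusted p = 0.0042). It did not call *Nr4a3* at 2.24 (edgeR adjusted p = 0.62), *Serpina3n* at 1.92 or *Egr1* at 0.92.

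*Per1* differed by 1.04 with both conditions, 0.05 with OHT alone and 0.29 with stimulation alone, and *Serpina3n* by 1.45, 0.25 and 0.87. *Mfsd2a* differed by 0.88, 0.61 and 0.43, with neither component called. With sex as a covariate stimulation alone was at 0.81 for *Per1*, 1.01 for *Serpina3n* and 0.98 for *Mfsd2a*, each above its value without the covariate and none called. The interaction, the change with both minus the sum of the changes with each, was called in none of the 12. It was 0.28 for *Fos* (edgeR adjusted p = 0.89), 0.13 for *Fosb* (edgeR adjusted p = 0.97), -0.39 for *Nr4a3* (edgeR adjusted p = 0.89), 0.34 for *Serpina3n* (edgeR adjusted p = 0.86) and 0.70 ± 0.30 for *Per1* (edgeR adjusted p = 0.53). A miss of the threshold does not show that the changes added up.

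**Figure D5:**
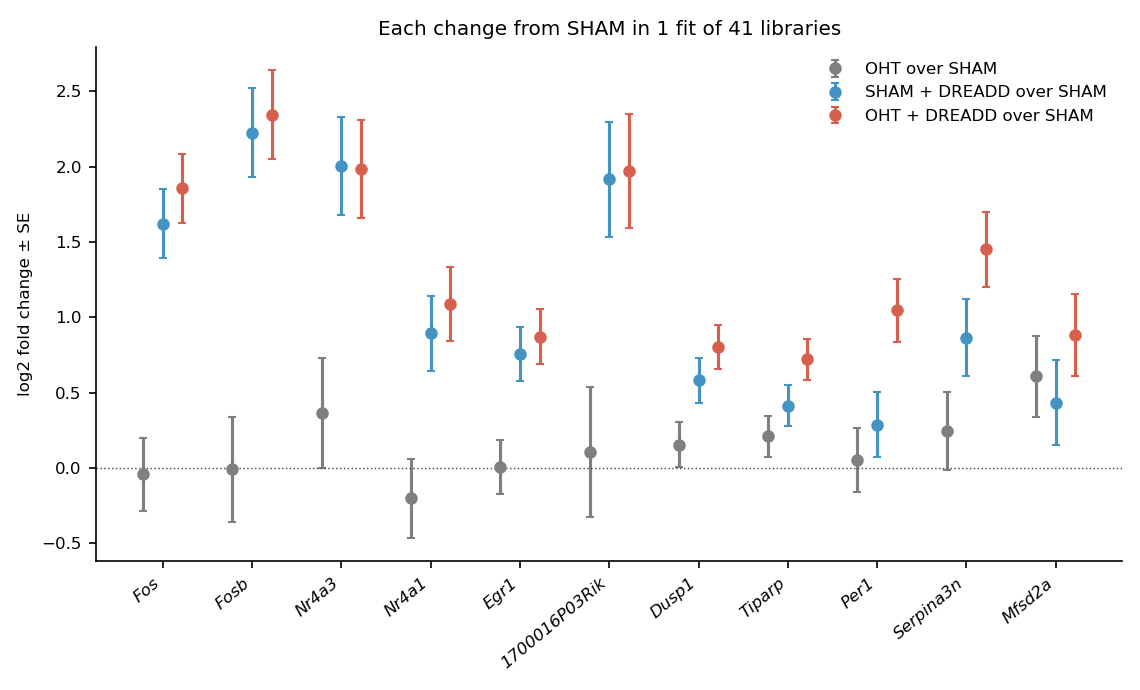
Log2 fold change with SE of 11 of the called genes in the model of 41 libraries, for OHT alone (grey), stimulation alone (blue) and both (red), each against “SHAM” (*Gm12630* is not drawn). *Fos* stood at -0.04, 1.62 and 1.85, and *Mfsd2a* at 0.61, 0.43 and 0.88.

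The interaction was called higher for 4 genes (0.0247%) and lower for 3 (0.0186%), and at an unadjusted p under 0.05 for 642 (3.97%) and 642 (3.97%). Among the lower ones were 3 processed pseudogenes, which can share reads with their parent genes and so are uncertain. *Rps3a3* had medians of 67.8 CPM in “SHAM”, 163 in “OHT”, 75.2 in “SHAM + DREADD” and 64.2 in “OHT + DREADD”, an interaction of -1.77 (edgeR adjusted p = 0.0013). *Gm11942* had medians of 224, 632, 289 and 220 CPM in that order, with -1.77 (edgeR adjusted p = 0.048), and *4930526A20Rik* of 0.517, 9.01, 0.815 and 0.763 CPM, with -5.76 (edgeR adjusted p = 0.0051). In each the “OHT” group stood high and the 3 other medians were close together. *Lpin1*, a phosphatidate phosphatase gene of lipid synthesis, was higher, with medians of 43.9, 36.9, 39.5 and 59.5 CPM and an interaction of 0.75 (edgeR adjusted p = 0.097), and *Srsf2*, a splicing factor gene, with 98.8, 87.3, 92.9 and 116 CPM and 0.54 (edgeR adjusted p = 0.062). *1810032O08Rik* was higher by 1.83 (edgeR adjusted p = 0.097), and *Uty*, a gene of the Y chromosome, by 4.34 (edgeR adjusted p = 0.097), beside 10 females and 0 males in “SHAM + DREADD”. With sex as a covariate 0 genes were called higher and 3 lower, and leaving out 1 library at a time gave 0 to 9 higher and 2 to 6 lower. The count of higher genes fell to 0 without “SHAM” replicate 10, “OHT” replicate 7, “SHAM + DREADD” replicate 9 or “OHT + DREADD” replicate 2.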

How the data were processed

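The authors sequenced QuantSeq 3′ libraries of collicular lysates and deposited raw counts of reads per Ensembl gene, with no normalization. By the paper and the submitters' processing notes, reads were checked with FastQC 0.11.7, aligned to mm10 with HISAT2, handled with SAMtools 1.5 and counted with HTSeq 2.7.14. Reads with several alignments were discarded, which lowers the counts of genes with close copies. The annotation release and strand setting are not given in the sources used here, so antisense and overlapping genes cannot be told apart. Of 43629 identifiers, 42548 had a GENCODE M21 symbol.

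Groups came from the sample titles, and each sample was 1 colliculus. The 20 libraries were fitted alone in R 4.3.3 with edgeR 4.0.16 (TMM, estimateDisp, glmQLFit, glmQLFTest), as were all 41 libraries with 1 coefficient per group. The filter asked for over 5 reads in 2 or more libraries, the Benjamini-Hochberg adjustment ran over all genes kept, and a call needed an adjusted p no higher than 0.1 and a log2 fold change of 0.5 or more in either direction. The standard error was derived from the log2 fold change and the F statistic. The code was tested on simulated data. Alternatives used DESeq2 1.42.0, limma 3.58.1, other filters, sex and replicate terms, and fits without single libraries. Levels in CPM were computed with edgeR, and promoter motifs in Python 3.11.15 with pandas 2.3.3. Scores over genes used a pseudocount of 0.5.

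Named genes were the called genes, the 5 of lowest p in a direction with fewer than 5 calls, up to 4 of lowest p per list, the IEGs that the paper names for the colliculus, and genes called in the interaction. *Klf2*, *Arc*, *Bdnf*, *Sgk1*, *Fkbp5*, *Tsc22d3*, *Plin4*, *Mt1*, *Mt2*, *Zbtb16*, *Chrm3*, *Ctla2a*, *Apold1*, *Phactr3*, *Dio2*, *Pnpla2*, *Txnip*, *Fabp7*, *Itih3*, *Agt*, and genes called only in the test of the sexes, were added after their values were seen. The members and lists were chosen with earlier results of these data known.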

Additional observations from a re-analysis of the deposited data

Results flagged for a closer look

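Among 158 groups of 10 values checked for a single colliculus far from the rest by Dixon's gap ratio, 23 had one. The chance rate of about 1 in 20 assumes normal values and separate groups. CPM cannot fall below 0, and in each case the far value was the highest. For *Gm12630* in “SHAM” it was the only read. The groups also share libraries, and some genes were named after their values were seen. The count of 23 therefore cannot be set against that rate. In “SHAM”, replicate 10 stood apart for *Fos* (31.6 CPM), *Egr4* (4.67 CPM) and *4930526A20Rik* (2.16 CPM), replicate 6 for *Serpina3n* (31.0 CPM), *Sult1a1* (19.2 CPM) and *Ifit3* (31.8 CPM), replicate 9 for *Gm12630* (0.345 CPM) and *Zbtb16* (14.5 CPM), and replicate 5 for *Mfsd2a* (28.7 CPM). In “OHT + DREADD”, replicate 10 stood apart for *Jun* (97.6 CPM), *Inhba* (27.0 CPM), *Dusp6* (70.0 CPM), *Lcn2* (74.3 CPM), *Rps3a3* (125 CPM), the summed microglia markers (1715 CPM) and the summed mural and meningeal markers (1783 CPM). Replicate 9 stood apart for *Mobp* (1062 CPM) and the summed oligodendrocyte markers (14374 CPM), replicate 2 for *Cry1* (54.1 CPM) and *Lpin1* (100.4 CPM), replicate 1 for *Plin4* (38.2 CPM), replicate 3 for *Gm29650* (2.48 CPM) and replicate 6 for *Gm11942* (722 CPM).

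The interaction of OHT and stimulation was called for 7 genes in the edgeR quasi-likelihood fit. The log2 interactions were -1.77 for *Rps3a3*, -5.76 for *4930526A20Rik*, -1.77 for *Gm11942*, 0.54 for *Srsf2*, 4.34 for *Uty*, 0.75 for *Lpin1* and 1.83 for *1810032O08Rik*. With sex as a covariate 0 were called higher and 3 lower. *Uty* lies on the Y chromosome and “SHAM + DREADD” held 10 females and 0 males, so for it the interaction and sex cannot be told apart. The change of “OHT + DREADD” against “SHAM” differed between males and females for 14 genes, by the test of the difference. The change in males exceeded that in females by 2.17 for *Ddit4*, 1.95 for *Mt2*, 1.85 for *Sgk1*, 1.74 for *Phactr3*, 1.66 for *Pnpla2*, 1.54 for *Cirbp*, 1.51 for *Dio2*, 1.37 for *Tsc22d3* and 1.00 for *Klf9*, all on the log2 scale. It exceeded it by 1.09 for *Mt1*, 2.58 for *Hr*, 1.40 for *Rhou*, 1.06 for *Pim3* and 1.06 for *2410006H16Rik*. With 2 “SHAM” females these differences rest on few animals, and most stimulated males were the colliculi singled out above for high glucocorticoid-responsive genes.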

How the results depend on the processing

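Against 12 genes higher and 0 lower in “OHT + DREADD”, the counts were 34 and 3 without a filter on low counts, 5 higher with the filterByExpr filter, 45 and 5 with the likelihood ratio test, 25 higher with DESeq2, 1 lower with limma-voom, 77 and 12 with sex as a covariate, 3 lower in 1 fit of all 41 libraries, 1 lower without the 4 colliculi, 188 and 84 in males alone and 4 and 1 in females alone. The fits without the 4 colliculi and in females alone were chosen after seeing the data. Leaving out 1 library at a time gave 8 to 21 higher and 0 to 1 lower, with 21, 20 and 19 higher without “OHT + DREADD” replicates 4, 5 and 6. Against an interaction called higher for 4 and lower for 3 genes, filterByExpr gave 1 higher, the likelihood ratio test 22 and 19, DESeq2 17 and 8, limma-voom 1 lower, the robust fit 1 higher, sex as a covariate 0 higher, library number 2 higher, an adjusted p of 0.05 0 higher, the fit without the 4 colliculi 0 higher, and leaving out 1 library 0 to 9 higher and 2 to 6 lower. An interaction in males alone was not possible because “SHAM + DREADD” held 0 males. Against 14 higher and 0 lower in males minus females, no filter gave 41 and 10, the likelihood ratio test 33 and 7, DESeq2 24 and 3, limma-voom 1 lower, and leaving out 1 library 1 to 62 higher and 0 to 25 lower. The cause of these shifts was not tested.

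With the replicate block, 20 genes were higher and 1 lower, and the interaction gave 8 and 11. The numbers did not pair the samples, since 10 same-number correlations ran from -0.0417 to 0.181, 1 was over 0.1 and 1 of 10 samples correlated best with its own number.

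Single genes turned in sign in 25 cases. Without the 4 colliculi, the log2 difference was -0.016 for *Sgk1*, -0.10 for *Fkbp5*, -0.093 for *Tsc22d3*, -0.23 for *Mt2*, -0.16 for *Zbtb16*, -0.026 for *Cdkn1a*, -0.022 for *Nfkbia*, -0.027 for *Lcn2*, -0.053 for *Phactr3* and -0.015 for *Pnpla2*. In males alone it was -0.31 for *Arc* and -0.17 for *Bdnf*. In females alone it was -0.10 for *Gadd45g*, -0.46 for *Ddit4*, -0.15 for *Sgk1*, -0.20 for *Fkbp5*, -0.36 for *Tsc22d3*, -0.088 for *Mt1*, -0.42 for *Mt2*, -0.18 for *Zbtb16*, -0.27 for *Gfap*, -0.16 for *Gjb6*, -0.35 for *Apold1*, -0.22 for *Phactr3* and -0.10 for *Pnpla2*. For the glucocorticoid-responsive genes, the fall without the 4 follows from how the 4 were singled out. The cause of the other turns was not tested. Over the named genes in “OHT + DREADD” against “SHAM”, 2244 other results kept their side of the threshold, 126 newly passed it and 75 no longer did. At depths of 1766207 to 3407553 reads, genes of a few reads per library, such as *Gm12630*, were the least precise.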

Other observations

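Further genes outside the lists, named after their values were seen, were high in “OHT + DREADD” replicates 1, 2, 9 and 10. *Ctla2a*, a cysteine protease inhibitor gene, was at 52.3, 81.2, 44.1 and 63.2 CPM in these colliculi, at 4.54 to 10.8 CPM in the other 6 and at 6.13 to 9.46 CPM in “SHAM”, with a log2 difference of 1.85 ± 0.42 over the group (edgeR adjusted p = 0.11). *Dio2*, the deiodinase gene that activates thyroid hormone in astrocytes, was at 96.7, 70.9, 65.0 and 63.2 CPM against at most 34.7 CPM in the other 6 and 27.8 CPM in “SHAM” (0.96 ± 0.22, edgeR adjusted p = 0.13). *Pnpla2*, the main triglyceride lipase, was at 72.4, 75.8, 56.5 and 65.7 CPM against at most 26.7 CPM in the other 6 and 23.4 CPM in “SHAM”. *Apold1*, an endothelial early gene, was at 67.0, 39.5 and 33.2 CPM in replicates 2, 9 and 10 but at 9.64 CPM in replicate 1, against 3.08 to 8.38 CPM in “SHAM” (1.90 ± 0.47, edgeR adjusted p = 0.20). None of these genes was called in the comparison of the groups.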
